A study of Mus musculus with 6 samples.

Results

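The fibrillar collagen genes of the infarcted mouse heart were examined 4 days after myocardial infarction (MI). They are the 9 genes named Col1a1, Col1a2, Col2a1, Col3a1, Col5a1, Col5a2, Col5a3, Col11a1 and Col11a2, out of 26012 genes measured, and were picked by name, with earlier results of these data known. All 6 animals were male C57BL/6 mice, 8 weeks old, in which MI was made by ligating the left anterior descending coronary artery. At surgery 3 hearts received an intra-cardiac injection of control mimic and 3 received miR-19a and miR-19b mimics, at 10 μg per heart in both groups. Such mimics are short synthetic RNAs that stand in for the mature miRNA. Every heart, control hearts included, was therefore infarcted and injected, and no uninjured heart is part of the comparison. Polyadenylated RNA of ventricular tissue was sequenced, and the deposited value of a gene in a heart is its read count divided by a size factor of that library, called here a normalized count.

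Fibrillar collagens are the rope-like proteins that give tissue its tensile strength. Each is a triple helix of chains that repeat glycine at every turn, and the helices assemble outside the cell into cross-linked fibrils. Type I collagen (chains from Col1a1 and Col1a2) and type III collagen (Col3a1) are the main collagens of heart muscle and of the scar that fibroblasts lay down after MI. Type V collagen (Col5a1, Col5a2, Col5a3) sits inside the type I fibril and sets where fibrils start and how thick they grow. Type II and type XI collagens (Col2a1, Col11a1, Col11a2) are best known from cartilage.

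The repeat that defines the family can be read in the genes themselves. The longest basic transcript of each gene in GENCODE M21 coded for an unbroken run of 337 to 344 glycine triplets, a triplet being a glycine codon followed by 2 other codons. The run was split over many short exons, of which 21 to 31 per gene were exactly 54 bases long and so hold 6 triplets. The first such exon of each gene is shown to make the shared repeat visible. The letters are the coding strand of GRCm38, with the glycine codons (GGN) in capitals and all other codons in lower case.
Col1a1, exon 8, chr11:94939904-94939957 (+): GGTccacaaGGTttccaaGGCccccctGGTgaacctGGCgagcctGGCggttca
Col1a2, exon 8, chr6:4515481-4515534 (+): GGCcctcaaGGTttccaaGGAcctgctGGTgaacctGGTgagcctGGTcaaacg
Col2a1, exon 10, chr15:97996489-97996542 (-): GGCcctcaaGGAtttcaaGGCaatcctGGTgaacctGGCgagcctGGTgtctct
Col3a1, exon 6, chr1:45325360-45325413 (+): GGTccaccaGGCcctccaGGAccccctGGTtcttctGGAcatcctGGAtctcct
Col5a2, exon 10, chr1:45422386-45422439 (-): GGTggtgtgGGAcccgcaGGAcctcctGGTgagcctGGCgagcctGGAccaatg
Col5a1, exon 15, chr2:27965251-27965304 (+): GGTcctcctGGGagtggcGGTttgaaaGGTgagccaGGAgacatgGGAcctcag
Col5a3, exon 15, chr9:20801068-20801121 (-): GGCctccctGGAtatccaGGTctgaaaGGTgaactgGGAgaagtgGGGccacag
Col11a1, exon 15, chr3:114108281-114108334 (+): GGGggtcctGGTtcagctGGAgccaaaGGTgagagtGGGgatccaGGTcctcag
Col11a2, exon 13, chr17:34051480-34051533 (+): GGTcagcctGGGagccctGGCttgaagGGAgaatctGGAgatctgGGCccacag

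The exon structures fell into 2 kinds. Col1a1, Col1a2, Col2a1, Col3a1 and Col5a2 had 51 to 54 coding exons, each with 5 exons of 99 bases. Col5a1, Col5a3, Col11a1 and Col11a2 had 64 to 67 coding exons, none of 99 bases. The type V chains are thus split between the kinds, with Col5a2 built like the chains of types I, II and III.

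**Figure D1:**
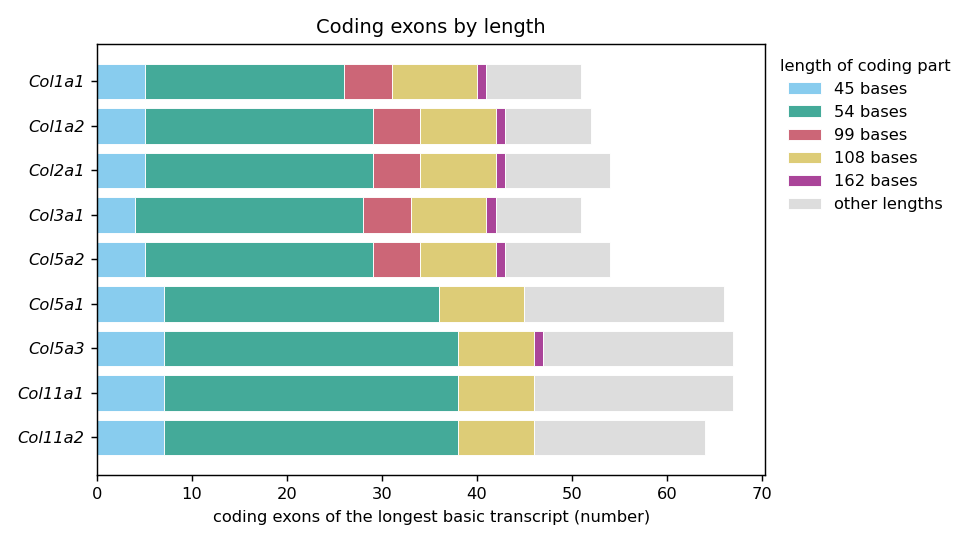
Coding exons of the longest basic transcript of each gene (horizontal axis, number of exons), coloured by the length of their coding part. The upper 5 genes have 51 to 54 coding exons with 5 of 99 bases each, and the lower 4 have 64 to 67 with none of 99 bases.

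As the files list them, Col1a1 lies at chr11:94936224-94953042 (+), Col1a2 at chr6:4504814-4541544 (+), Col5a1 at chr2:27886425-28039514 (+) and Col5a3 at chr9:20770050-20815067 (-). Col11a1 lies at chr3:114030540-114220718 (+), Col11a2 at chr17:34039437-34066685 (+) and Col2a1 at chr15:97975602-98004695 (-). Col3a1 (chr1:45311538-45349706, +) and Col5a2 (chr1:45374321-45503282, -) are neighbours whose 3′ ends face each other across 24614 bases. All 9 genes had the same chromosome, start and end in GENCODE M21, an annotation of GRCm38. Short non-coding or unclassified annotated genes overlap Col1a2, Col3a1, Col5a1, Col5a2 and Col5a3, and whether reads were counted by strand is not stated in the sources used here, so the counts of these 5 genes may gain or lose reads at those overlaps.

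The injected mimics were those of miR-19a and miR-19b. The mature mouse sequences in RefSeq (GRCm38.p6) are shown because their shared seed (bases 2 to 8, in capitals) sets which transcripts they can pair with. They have the same seed, and the single difference between them is U11C, counted from the 5′ end with the base of miR-19a first.
miR-19a-3p, chr14:115044048-115044070 (+): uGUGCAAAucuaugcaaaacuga
miR-19b-3p, chr14:115044358-115044380 (+) and chrX:52741991-52742013 (-): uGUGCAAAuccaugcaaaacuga

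The longest annotated 3′ UTR of each collagen gene was searched, on the transcript's strand only, for the 7-base matches TTTGCAC (seed positions 2 to 8) and TTGCACA (positions 2 to 7 followed by A), which share the letters TTGCAC. None of the 9 genes held either 7-base match, against 18.3% of the 15803 tested genes with an annotated 3′ UTR. The 6-base match TTGCAC, which both of the longer ones contain, was found in 1 of the 9 genes and in 25.7% of the tested genes. That match lies in the 3′ UTR of Col11a1, starting at base 412 of 1891, and is shown with its surroundings, the match in capitals.
Col11a1 3′ UTR, chr3:114219227-114219256 (+): catttccaaaacTTGCACgtgactctcaat
The search shows only whether these letters occur in these windows.

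Depth was similar, with 19398196 to 23645308 gene reads per heart. In 2 libraries of the mimic group the values stood apart in different ways. Counts of miR-19a/19b mimic replicate 3 differed from those of replicates 1 and 2 of its group by a chi-square of 135 and 121 per degree of freedom, while every other pair of hearts within a group was between 10.3 and 26.6. Its summed level of 11 cardiomyocyte markers, all of them detected, was 352969 normalized counts, against 579797 to 1036050 in the other 5 hearts. In miR-19a/19b mimic replicate 1 the 10 skeletal muscle markers summed to 3124 normalized counts, against 34.2 to 73.5 elsewhere. Over log2 values of all genes tested, this heart was also the farthest from the median of the other hearts (SD of the difference 0.626, against 0.524 to 0.584). Fold changes of the collagen genes and counts of their lists are therefore also given without replicate 3. That heart was singled out by its distance in the same counts that are tested, and 2 mimic hearts remain without it. The p-values and calls of that fit do not allow for this choice and are descriptions only. Without replicate 1, limma called 0 genes, the 9 collagen genes kept the sign of their fold change, and Col2a1 was again the 1 gene of them at an unadjusted p under 0.05.

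No fibrillar collagen gene was called different between the groups. Groups were tested by limma, fitted to log2(normalized count + 1) in the 21126 genes that reached a mean of at least 1, as all 9 collagen genes did. A call required a Benjamini-Hochberg adjusted p under 0.05. Over all genes tested, 0 were called (0.0%), the smallest adjusted p was 0.396, and 848 genes had an unadjusted p under 0.05. edgeR's quasi-likelihood test on the reads recovered from the values also called 0 genes, and DESeq2 called 29, none of them a fibrillar collagen. The adjusted p from limma was 0.9996 for each of the 9 genes. Without adjustment, limma put 1 of the 9 (Col2a1) below 0.05 with a lower value after miR-19a/19b mimic, where 2.63% of all genes tested were lower at that threshold, and 0 of 9 with a higher value, where the share of all genes was 1.39%. Control and mimic hearts were fully separated for Col2a1, lower in all mimic hearts as were 5.3% of all genes tested, and for Col5a3, higher in all mimic hearts as were 3.9% of all genes tested. In all, 6 of the 9 had a lower fitted value and 3 a higher one, with a median log2 fold change of -0.07, beside 0.00 over all genes tested.

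**Figure D2:**
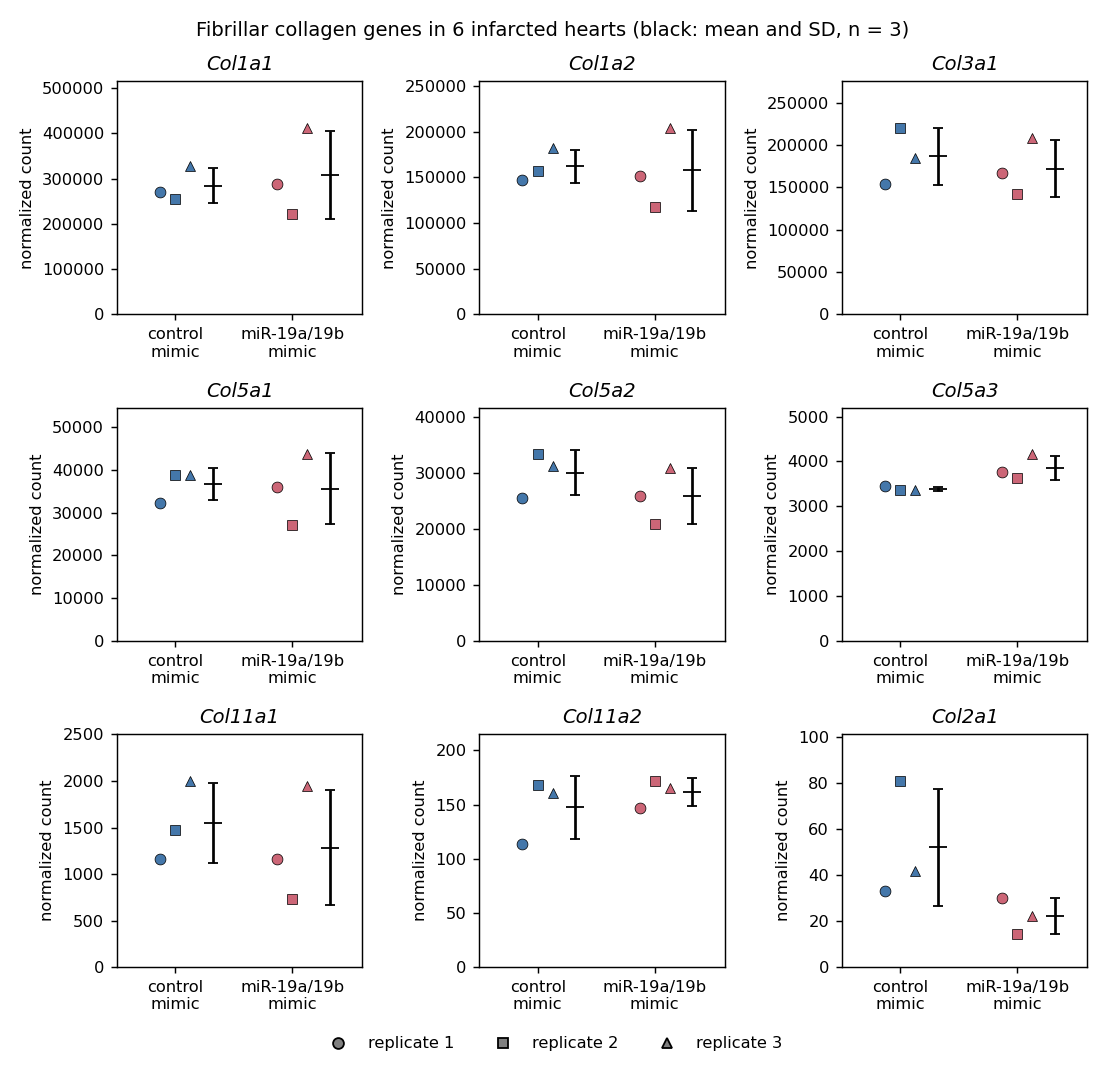
Normalized count (vertical axis, from 0, scaled for each gene) of the 9 fibrillar collagen genes in 3 control mimic hearts (blue) and 3 miR-19a/19b mimic hearts (red), with a symbol for each replicate number and the mean ± SD in black. The groups overlap for 7 genes; Col5a3 is higher and Col2a1 is lower in all 3 miR-19a/19b mimic hearts.

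Without replicate 3 of the miR-19a/19b mimic group, 547 of 21202 genes were called by limma (2.58%), 164 lower and 383 higher, and again none was a fibrillar collagen. In that fit 3 of the 9 collagen genes (Col2a1, Col11a1 and Col5a2) had a lower value at an unadjusted p under 0.05, beside 6.08% of all genes, and 0 of 9 a higher value, beside 8.39% of all genes. Then 7 of the 9 had a lower fitted value, with a median log2 fold change of -0.26, beside 0.0024 over all genes tested. The heart left out was the highest of the mimic group for 7 of the 9 genes, so leaving it out lowers their mimic mean. Without replicate 2 of that group in its place, the lowest of the group for 8 genes, limma called 0 genes. Col1a1 then stood at 0.29 and Col1a2 at 0.12, but Col5a2 at -0.08 and Col2a1 at -0.87. Other measures moved with the comparison without replicate 3. The 11 cardiomyocyte markers summed to 1036050 and 930130 normalized counts in the 2 remaining mimic hearts, above the 579797 to 751444 of the control hearts. Mitochondrial genes took 6.86% and 6.93% of gene reads in these hearts, against 4.18% to 5.88% in control hearts. Their part in the collagen values was not tested.

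**Figure D3:**
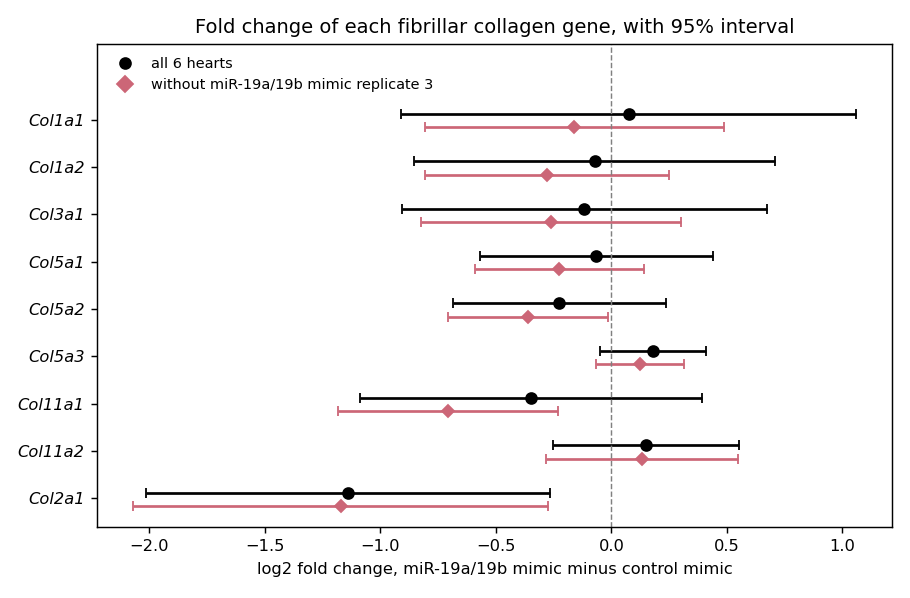
Log2 fold change (horizontal axis, miR-19a/19b mimic minus control mimic, log2(normalized count + 1) scale) of each gene with its 95% interval from limma, with all 6 hearts (black circles) and without miR-19a/19b mimic replicate 3 (red diamonds). With all hearts, the interval of Col2a1 alone leaves out 0; without the replicate those of Col5a2 and Col11a1 do so as well.

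The chains of type I and type III collagen were among the most abundant transcripts of these hearts. Ranked by mean normalized count over all 26012 genes, Col1a1 was number 2, Col3a1 number 5 and Col1a2 number 6. The 9 fibrillar collagen genes together took 2.96%, 3.43% and 3.49% of the reads on genes in control mimic replicates 1, 2 and 3, against 2.92%, 2.39% and 4.51% in the miR-19a/19b mimic hearts in the same order. The lowest and the highest shares were both in the mimic group, and the groups overlapped. The means were 3.29% ± 0.291 (SD, n = 3) and 3.27% ± 1.11 (SD, n = 3). Col1a1, Col1a2 and Col3a1 made up between 89.1% and 91.1% of the fibrillar collagen reads in every heart. In bulk tissue, fewer cells of a type and less RNA per cell cannot be told apart.

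Col1a1, the gene of the α1 chain of type I collagen, had 270138, 254239 and 327494 normalized counts in control mimic replicates 1, 2 and 3, against 287995, 221273 and 412278 in replicates 1, 2 and 3 of the miR-19a/19b mimic. The lowest and the highest heart were both injected with miR-19a/19b mimic. Its log2 fold change was 0.07 (SE 0.43, 95% interval -0.91 to 1.06). The interval thus spans 0.532 to 2.09 times the control level. Without miR-19a/19b mimic replicate 3 the fitted value lay on the other side of 0, at -0.16 (SE 0.30).

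Col1a2, the gene of the partner chain in type I collagen, had 147019, 156733 and 182422 normalized counts in the control mimic hearts and 151217, 117125 and 204359 in the miR-19a/19b mimic hearts, each in replicate order. Its lowest and highest hearts were the same as for Col1a1. A log2 fold change of -0.07 (SE 0.34, 95% interval -0.85 to 0.71) was fitted, and -0.28 (SE 0.24) without replicate 3.

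Col3a1, which makes the single kind of chain in type III collagen, had 153957, 220448 and 185234 normalized counts with control mimic and 166925, 141935 and 208050 with miR-19a/19b mimic. Its highest heart was control mimic replicate 2, which was the lowest control heart for Col1a1. The fitted log2 fold change was -0.12 (SE 0.35, 95% interval -0.91 to 0.67), and -0.26 (SE 0.26) without replicate 3. For these 3 abundant genes the standard error was 0.34 to 0.43 log2 units, larger than any of their fold changes.

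Of the type V genes, Col5a1, whose chain is part of nearly every type V helix, had 32334, 38856 and 38769 normalized counts with control mimic and 36002, 27092 and 43645 with miR-19a/19b mimic. Both extremes were again mimic hearts, and the log2 fold change was -0.06 (SE 0.22, 95% interval -0.57 to 0.44), or -0.23 (SE 0.17) without replicate 3. Col5a2, its usual partner, had 25535, 33324 and 31218 normalized counts with control mimic and 25826, 20925 and 30820 with miR-19a/19b mimic. The groups overlapped, and the log2 fold change was -0.22 (SE 0.20, 95% interval -0.69 to 0.24). Without replicate 3 it was -0.36 (95% interval -0.71 to -0.01), with an adjusted p of 0.324 from limma.

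Col5a3, the gene of the rarer α3 chain of type V collagen, was the steadiest of the family. It had 3449, 3358 and 3371 normalized counts in control mimic replicates 1, 2 and 3, against 3765, 3635 and 4162 in replicates 1, 2 and 3 of the miR-19a/19b mimic. Every mimic heart was above every control heart, with means of 3854 ± 275 and 3393 ± 49.5 (SD, n = 3 each). The log2 fold change of 0.18 (SE 0.10, 95% interval -0.05 to 0.41) did not pass the test (limma adjusted p = 0.9996). Without replicate 3 it was 0.12 (95% interval -0.07 to 0.32). An exact two-sided permutation test gave p = 0.1, the smallest that 3 hearts against 3 allow and the value that any full separation of them gives. Across the 6 hearts the highest value was 1.24 times the lowest, while this ratio ran from 1.51 to 5.61 for the other 8 genes.

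The type XI genes were expressed at lower levels. Col11a1 had 1158, 1478 and 2002 normalized counts with control mimic and 1164, 732.0 and 1950 with miR-19a/19b mimic. Replicate 3 was the highest heart in each group and miR-19a/19b mimic replicate 2 the lowest of all, and the groups overlapped. With all hearts the log2 fold change was -0.35 (SE 0.33, 95% interval -1.09 to 0.39). This value hung on single hearts. Without miR-19a/19b mimic replicate 3 it was -0.71 (95% interval -1.18 to -0.23, limma adjusted p = 0.127), and without miR-19a/19b mimic replicate 2 it was -0.00079. Col11a2 had 113.8, 167.9 and 160.7 normalized counts with control mimic and 147.4, 172.2 and 165.1 with miR-19a/19b mimic. Its lowest heart was control mimic replicate 1, and the other 5 lay between 147.4 and 172.2. The fit gave a log2 fold change of 0.15 (SE 0.18, 95% interval -0.25 to 0.55), 0.13 (SE 0.19) without replicate 3 of the mimic group, and -0.03 without that control heart.

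Col2a1, the gene of the chain of cartilage type II collagen, was the least expressed member and the one with the largest fitted change of the 9. It had 33.2, 81.0 and 42.0 normalized counts in control mimic replicates 1, 2 and 3, against 30.1, 14.4 and 22.5 in replicates 1, 2 and 3 of the miR-19a/19b mimic. Every mimic heart was below every control heart, although miR-19a/19b mimic replicate 1 and control mimic replicate 1 were only 28 and 30 reads. Its log2 fold change of -1.14 (SE 0.39, 95% interval -2.02 to -0.26) did not pass the test (limma adjusted p = 0.9996). DESeq2 gave -1.23 with an adjusted p of 0.487. The exact two-sided permutation test again gave its smallest p, 0.1, which follows from the separation and adds nothing to it.

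Control mimic replicate 2 and miR-19a/19b mimic replicate 2 weighed most on the value of Col2a1. Without the former the log2 fold change was -0.77 and without the latter -0.87, and in neither fit was the unadjusted p under 0.05. Without replicate 3 of the mimic group it was -1.17 (95% interval -2.07 to -0.27, limma adjusted p = 0.189). The values rest on 14 to 83 reads per heart, and the control hearts varied with a coefficient of variation of 48.9%.

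Other cartilage genes were read beside Col2a1. Of 14 cartilage markers 13 were in the table, none was at 0 in all hearts, and their summed level was 1060 to 1683 normalized counts with control mimic and 903 to 1325 with miR-19a/19b mimic, so that the groups overlapped. Of 12 that were tested, 8 had a lower fitted value and 4 a higher one. Most of this sum was Sox9, a transcription factor that activates Col2a1, with 711.8, 867.6 and 1074 normalized counts with control mimic and 811.2, 605.2 and 852.3 with miR-19a/19b mimic. Acan, the gene of the large cartilage proteoglycan, ranged from 83.5 to 313 normalized counts, with both groups overlapping. Matn1 and Ucma, further cartilage genes, were at most 5.53 and 1.03 normalized counts. Among those with a higher fitted value, Lect1 had 5.53, 1.95 and 4.67 normalized counts with control mimic and 19.4, 14.4 and 4.32 with miR-19a/19b mimic (log2 fold change 1.31, SE 0.58), with the groups overlapping in replicate 3. Col10a1, a collagen of growth plate cartilage, stood at 0.57 (SE 0.55) with at most 9.34 normalized counts. Col9a2, of cartilage type IX collagen, had its highest value, 293.8, in control mimic replicate 2, the same heart as Col2a1. The part of the cartilage genes in the value of Col2a1 was not tested.

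Per kilobase of transcript, which allows levels to be compared between genes, Col1a1 came first with a mean of 49843 normalized counts per kb over 6 hearts. Col3a1 followed at 32247 and Col1a2 at 29883 normalized counts per kb. Col1a1 was above Col3a1 in 6 of 6 hearts although their ranges overlapped, whereas Col3a1 was above Col1a2 in 4 of 6 hearts, so that the order of this pair did not exceed the spread. Col5a1 (4296 normalized counts per kb) and Col5a2 (4218) formed the next pair, in this order in 3 of 6 hearts, all of the mimic group. Col5a3 (592), Col11a1 (184), Col11a2 (25.5) and Col2a1 (7.29 normalized counts per kb) came below, each with a range apart from the one before. From Col1a2 down to Col5a1 the mean fell 6.96 times, and from Col5a2 to Col5a3 it fell 7.12 times. These levels depend on the gene length used. With the lengths listed in the deposited table, Col3a1 was above Col1a2 in every heart, at means of 18279 and 12861 normalized counts per kb. Col5a1 then had a mean of 4254.

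**Figure D4:**
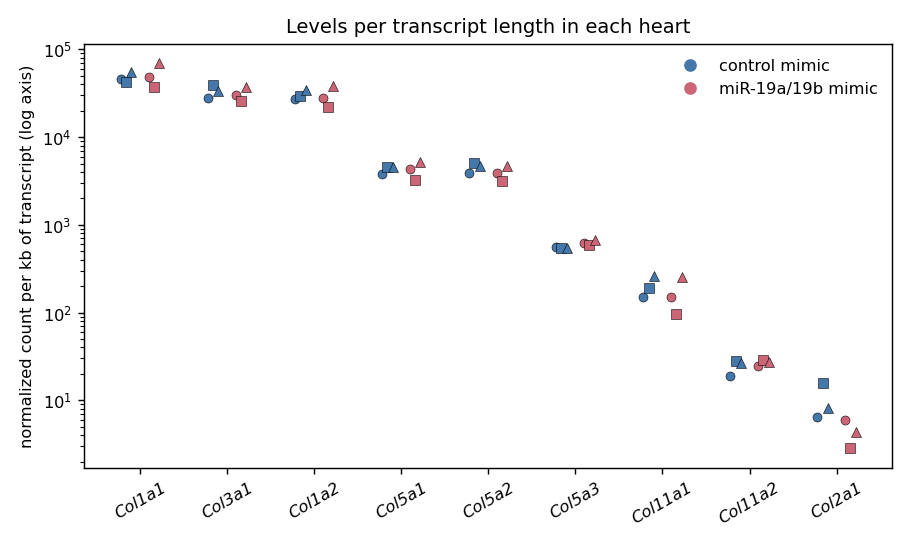
Normalized count per kb of the longest basic transcript (vertical log axis) of each gene in 3 control mimic hearts (blue) and 3 miR-19a/19b mimic hearts (red), with a symbol for each replicate number as in the plot of counts by heart. Col1a1, Col3a1 and Col1a2 lie near the top, between 21901 and 69524, and Col2a1 at the bottom, between 2.83 and 15.9.

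Since chains are assembled in fixed combinations, 7 ratios of levels per kb were taken within each heart. These are descriptions, with no test. How often ratios of other gene pairs separate the groups in the same way was not counted. The ratio of Col1a1 to Col1a2 was 1.66, 1.46 and 1.62 in control mimic replicates 1, 2 and 3, against 1.72, 1.70 and 1.82 in replicates 1, 2 and 3 of the miR-19a/19b mimic. All mimic hearts were above all control hearts, at 1.75 ± 0.0632 against 1.58 ± 0.103 (SD, n = 3 each). The gap between the highest control heart and the lowest mimic heart was small beside the spread within the control group.

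The ratio of Col5a1 to Col5a2 was 0.998, 0.919 and 0.979 in the control mimic hearts and 1.10, 1.02 and 1.12 in the miR-19a/19b mimic hearts, again with no overlap. The other 5 ratios overlapped between the groups. The ratio of Col3a1 to Col1a1 ran from 0.538 in miR-19a/19b mimic replicate 3 to 0.924 in control mimic replicate 2, and that of Col5a3 to Col5a1 from 0.119 to 0.184. Col11a1 to Col11a2 varied most, from 3.35 in miR-19a/19b mimic replicate 2 to 9.83 in control mimic replicate 3. Col11a1 to Col5a1 lay between 0.0296 and 0.0566, and Col5a2 to Col1a1 between 0.0669 and 0.117. The level of these ratios depends on the gene length used. With the lengths listed in the deposited table, chosen as an alternative after seeing the data, Col5a1 was above Col5a2 in all 6 hearts (by at least 1.32 times), and the ratio of Col1a1 to Col1a2 was 3.07 to 3.82, because the table lists Col1a2 at 12426 bases against 5348 bases for its longest basic transcript.

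**Figure D5:**
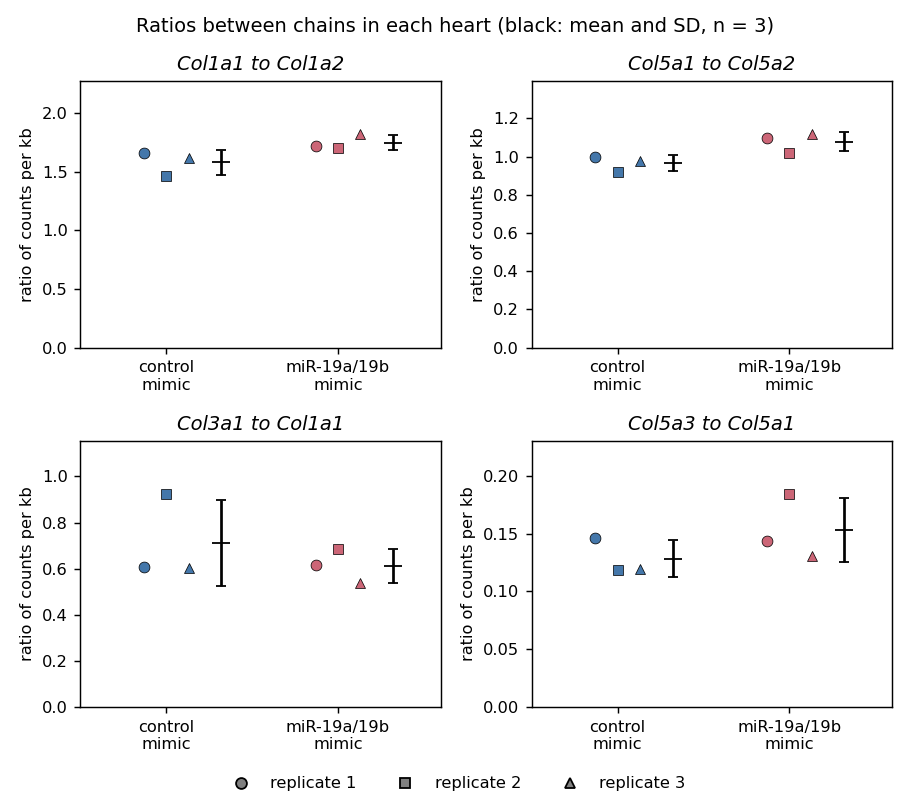
Ratio of normalized counts per kb (vertical axis, from 0) for 4 pairs of chains in each heart, control mimic in blue and miR-19a/19b mimic in red, with the mean ± SD of 3 hearts in black. The ratios of Col1a1 to Col1a2 and of Col5a1 to Col5a2 are higher in all 3 miR-19a/19b mimic hearts, and the other pairs overlap. No ratio was tested, and how often other gene pairs separate was not counted.

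The same hearts were often high or low across the family. Over the 9 genes, miR-19a/19b mimic replicate 2 was the lowest of the 6 hearts for 7 genes (all but Col5a3 and Col11a2), and miR-19a/19b mimic replicate 3 was the highest for 4 (Col1a1, Col1a2, Col5a1 and Col5a3). Control mimic replicate 1 was the lowest of its group for 7 genes. The coefficient of variation of Col1a1 was 13.6% among control hearts and 31.6% among mimic hearts.

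Levels of fibroblast genes were set beside the collagens, since fibroblasts are the main source of fibrillar collagen in the heart. The 10 fibroblast markers summed to 53929 to 57021 normalized counts with control mimic and 50491 to 59140 with miR-19a/19b mimic, and all were detected. The 10 activated fibroblast markers summed to 113535 to 148990 and 91807 to 120379 normalized counts. Of the latter, 9 of 10 had a lower fitted value and 1 a higher one, beside 49.2% of all genes tested with a lower one. This list shares Cnn1, Acta2 and Tagln with the smooth muscle markers. Its median log2 fold change was -0.26, and 2 were lower at an unadjusted p under 0.05, beside 2.63% of all genes tested. They were Cnn1, which smooth muscle also expresses (-0.62, SE 0.18), and Cilp, a matrix protein (-0.60, SE 0.23). Of the 10 fibroblast markers, Dpep1 alone was below that threshold, with a higher value (0.28, SE 0.11), beside 1.39% of all genes tested. The lowest sum of the activated fibroblast markers, 91807, was in miR-19a/19b mimic replicate 2, the heart that was lowest for 7 of the 9 collagen genes. In miR-19a/19b mimic replicate 3, highest for Col1a1 and Col1a2, the fibroblast sum was the lowest of the 6 hearts, at 50491. The other lists overlapped between groups as well, with 75787 to 131663 normalized counts for 7 smooth muscle markers, 66306 to 101672 for 10 macrophage markers and 24654 to 31900 for 7 endothelial markers over the 6 hearts. Fitted values were lower for 6 of the 7 smooth muscle markers (median -0.27), 8 of the 10 macrophage markers (median -0.14) and 3 of the 7 endothelial markers. Of the 10 fibroblast markers, 6 had a lower fitted value and 4 a higher one (median -0.02). Higher fitted values were found for 7 of the 11 cardiomyocyte markers (median 0.13). All 10 skeletal muscle markers had a higher one, with a sum that was by far highest in miR-19a/19b mimic replicate 1. With all 6 hearts, the sums of every marker list overlapped between control and mimic hearts, and their part in the collagen values was not tested.

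The genes whose pattern over the 6 hearts was most like that of a collagen were ranked by Pearson's r of log2(normalized count + 1), as a description over 6 hearts that share libraries. Among 11608 genes with a mean of at least 100, Hexim1 was most like Col1a1 (r = 0.995), followed by Itpripl2, Man1c1, Cacng7 and Srgap1 (r = 0.981). Col1a2 came at rank 50 (r = 0.943) and Col3a1 at r = 0.556. For Col3a1 the closest were Fam83d (r = 0.995), Setdb1, Cd22, Ddx26b and Tbc1d2b (r = 0.988), with its neighbour Col5a2 at rank 74 (r = 0.944). For Col2a1, among 15512 genes with a mean of at least 10, the closest were Dclk3 (r = 0.993), Frzb, Heatr5a, Lamb1 and Gm43196 (r = 0.981). Dclk3 had 67.4, 130.8 and 71.0 normalized counts with control mimic and 60.3, 37.1 and 48.4 with miR-19a/19b mimic, the same order of hearts as Col2a1. A gene picked for the highest r among so many over 6 hearts would tend to have that order, so it is no further result.

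The genes that process, bind, sense and degrade fibrillar collagen were taken as 7 lists, with 103 genes that could be tested and 5 that were absent or too low. None was called by limma. At an unadjusted p under 0.05, 6 had a lower value after miR-19a/19b mimic and 0 a higher one, beside 2.63% and 1.39% of all genes tested. Without miR-19a/19b mimic replicate 3 these counts were 19 and 5, beside 6.08% and 8.39%. In that fit 4 of the 103 were called, beside 2.58% of all genes. Genes named below only from that fit are those under the same unadjusted threshold in it, a choice made after seeing their values. With all hearts, 5.3% of all genes tested were lower in every mimic heart than in every control heart, and 3.9% higher. Fully lower were 1 of 13 genes for propeptide cleavage and cross-linking, 2 of 11 receptors, 3 of 25 regulators and 0 in each other list. Fully higher was 1 of 20 genes for fibril-associated collagens and fibril-binding proteins.

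Inside the cell, prolyl and lysyl hydroxylases and chaperones prepare the chains for folding. None of the 18 tested genes of this list had an unadjusted p under 0.05, and their median log2 fold change was -0.04. In the fit without replicate 3, 3 were lower at that threshold (P4ha3 at -0.40, P3h3 at -0.28 and Colgalt1 at -0.20), none was called, and the median was -0.12. The most expressed were Serpinh1, the collagen-specific chaperone (log2 fold change -0.08, SE 0.19), and P4hb, the β subunit of prolyl 4-hydroxylase (-0.00234, SE 0.16). Serpinh1 ranged from 28810 to 39772 normalized counts, both extremes being mimic hearts.

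Outside the cell, propeptides are cleaved and the lysyl oxidases cross-link the fibrils. Of 13 tested genes, 1 had a lower value at an unadjusted p under 0.05 and 0 a higher one, and the median log2 fold change was -0.05. It was Loxl4, a lysyl oxidase, with 286.3, 245.9 and 234.5 normalized counts with control mimic and 189.4, 173.2 and 224.8 with miR-19a/19b mimic. Its groups did not overlap, and the log2 fold change was -0.39 (SE 0.15). Lox, the main cross-linking enzyme of the list by level with Loxl1, had 12809, 13516 and 16719 normalized counts with control mimic and 11863, 9625 and 13208 with miR-19a/19b mimic, which overlapped (log2 fold change -0.31, SE 0.17). Loxl1 stood at 0.05 (SE 0.16). With replicate 3 left out, 3 genes of the list were lower at the unadjusted threshold (Lox at -0.42, Loxl3 at -0.39 and Loxl4 at -0.49), none was called, and the median was -0.12.

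Of 20 tested genes for fibril-associated collagens and fibril-binding proteins, 2 had a lower value at an unadjusted p under 0.05, with a median log2 fold change of -0.15 for the list. Fmod, a small proteoglycan that binds type I fibrils, had 678.6, 580.7 and 1116 normalized counts with control mimic and 658.5, 312.4 and 388.1 with miR-19a/19b mimic. The groups overlapped in 1 heart of each, and the log2 fold change was -0.82 (SE 0.30). Col9a2, also among the cartilage markers, stood at -0.70 (SE 0.30), its groups overlapping. The most expressed, Sparc and Fn1, matrix proteins that bind collagen, stood at -0.05 (SE 0.29) and -0.18 (SE 0.30). With replicate 3 left out, 3 genes of the list were lower at the unadjusted threshold (Fmod at -0.74, Col9a2 at -0.82 and Col12a1 at -0.47) and the median was -0.26. In that fit 1 was higher and called, Tnxb, a tenascin that binds collagen, which rose by 0.83 (limma adjusted p = 0.00980). Tnxb had 1556, 1326 and 1800 normalized counts with control mimic and 2758, 2738 and 1040 with miR-19a/19b mimic. With all hearts it stood at 0.36 (SE 0.34). Its hearts ran from high to low in the order of their cardiomyocyte marker sums, and the part of that cell type was not tested.

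Of 11 collagen receptors, 1 had a lower value at an unadjusted p under 0.05, and the median log2 fold change was -0.18. Lair1, an inhibitory receptor of immune cells, had 905.2, 968.1 and 900.6 normalized counts with control mimic and 565.9, 674.3 and 894.7 with miR-19a/19b mimic. The mimic hearts were all lower, replicate 3 by a narrow margin, and the log2 fold change was -0.40 (SE 0.16). Without replicate 3, Lair1 fell by 0.58 on the log2 scale (limma adjusted p = 0.0224), where the 10 macrophage markers summed to 66306 and 77148 normalized counts in the 2 remaining mimic hearts and 81819 to 95443 in the control hearts. Itgb1, the integrin β1 chain, was also lower in every mimic heart (21586 to 23610 normalized counts against 24967 to 27452; log2 fold change -0.19, SE 0.15), and Mrc2, the endocytic collagen receptor, stood at -0.07 (SE 0.14). In the fit without replicate 3, Itga11, a collagen-binding integrin chain, was also lower at the unadjusted threshold (-0.47) and Adgrg1 higher (0.30), and the median was -0.16.

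None of 14 tested genes for fibrillar collagen breakdown had an unadjusted p under 0.05, with a median log2 fold change of -0.02. Mmp14, a membrane-bound collagenase, was highest in miR-19a/19b mimic replicate 3, at 19826 normalized counts against 11429 to 13724 in the other hearts (log2 fold change 0.14, SE 0.21). Ctsl, a lysosomal protease, stood at -0.20 (SE 0.17). Without miR-19a/19b mimic replicate 3, 3 genes of the list were lower at the unadjusted threshold (Mmp8, the neutrophil collagenase, at -0.71, Mmp9 at -0.51 and Ctsl at -0.34), and the median was -0.11. In that fit 1 was higher and called, Timp4, an inhibitor of metalloproteinases, which rose by 0.98 (limma adjusted p = 0.0430). Timp4 had 479.7, 262.5 and 496.1 normalized counts with control mimic and 808.0, 764.0 and 220.4 with miR-19a/19b mimic. Its hearts ran from high to low in the order of their cardiomyocyte marker sums, which without replicate 3 were also higher in the mimic hearts, and the part of that cell type was not tested.

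Of 25 regulators of collagen transcription, 2 had a lower value at an unadjusted p under 0.05, and the median log2 fold change was -0.09. Ctgf, a matricellular growth factor induced by TGF-β, had 9893, 13758 and 13402 normalized counts with control mimic and 9841, 7751 and 7720 with miR-19a/19b mimic. All mimic hearts were below all control hearts, although replicate 1 of each group was nearly level, and the log2 fold change was -0.54 (SE 0.17). Tgfb2, a TGF-β ligand, had 1474, 1443 and 1628 normalized counts with control mimic and 1377, 1087 and 968.2 with miR-19a/19b mimic, without overlap (log2 fold change -0.42, SE 0.14). Ski, a repressor of TGF-β signalling and the other gene of the list named for its level, stood at 0.07 (SE 0.12). When replicate 3 was left out, 5 genes of the list were lower at the unadjusted threshold (Ctgf at -0.48, Tgfb2 at -0.31, Runx1 at -0.31, Runx2 at -0.30 and Tgfb1 at -0.22), and the median was -0.15. In that fit 2 were higher, Sox6 at 0.51 and Klf4, a transcription factor, which was called and rose by 0.57 (limma adjusted p = 0.0317). With all hearts Sox6 stood at 0.11 (SE 0.30) and Klf4 at 0.36 (SE 0.19). The hearts of Sox6 ran from high to low in the order of their cardiomyocyte marker sums, and the part of that cell type was not tested.

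The other fibrillar collagen genes, Col24a1 and Col27a1, lay outside the 9. Col24a1 had 213.7 to 261.6 normalized counts with control mimic and 195.8 to 338.9 with miR-19a/19b mimic (log2 fold change 0.10, SE 0.20). Col27a1 ranged from 1253 to 1857 normalized counts, both extremes in mimic hearts (log2 fold change -0.02, SE 0.16). Neither passed the unadjusted threshold without replicate 3.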

How the data were processed

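The 6 libraries came from ventricles of 6 infarcted mouse hearts. Per the labels, the submitters' processing notes name STAR 2.5.1b, HTSeq 0.6.0 and DESeq2 1.10.1, and the build mm9, while the coordinates in the table are those of GRCm38, which were used. The signal that the authors deposited is each gene's read count divided by a size factor (0.905 to 1.16, those of DESeq2). Whole reads were recovered for 100% of the values within 0.01. The authors' own fold changes and p-values in the table were not used.

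The groups were compared with limma 3.58.1 (R 4.3.3, trended prior) on log2(normalized count + 1) over genes with a mean of at least 1, with Benjamini-Hochberg adjustment over all of them. A fold change on this scale understates that of low genes. edgeR 4.0.16 and DESeq2 1.42.0 on recovered reads were alternatives. The limma test was checked on simulated reads. Levels per kb used the longest GENCODE M21 basic coding transcript. The genes named are the 9 members; of each pathway list those with an unadjusted p under 0.05 and the 2 of highest mean; and the 5 genes most like Col1a1, Col3a1 and Col2a1; and marker genes from their lists, except genes said to be chosen after their values were seen. The members and lists were chosen with earlier results of these data known. Replicates are 3 biological replicates a group by the study's methods, and p-values and intervals cover the spread between them.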

Additional observations from a re-analysis of the deposited data

How the results depend on the processing

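Under 8 alternatives that kept all hearts (DESeq2, edgeR with TMM or RLE factors, limma-voom, a pseudocount of 0.1, no filter, at least 10 normalized counts in every heart, and the replicate number as a block) the 9 collagen genes kept the sign of their fold change and none was called. DESeq2 called 29 genes in all, 28 of them lower, where limma called 0; the cause was not tested. Replicate numbers did not pair the hearts (correlations of same-numbered hearts -0.0085, -0.021 and -0.11). With the replicate block 0 genes were called, Col2a1 stood at -1.14 and stayed under an unadjusted p of 0.05, and 4 in place of 6 list genes had an unadjusted p under 0.05.

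Leaving out each heart in turn, the number of genes called ranged from 0 to 547, the latter without miR-19a/19b mimic replicate 3; that of fibrillar collagens at an unadjusted p under 0.05 from 0 to 3; and that of list genes from 1 (without control mimic replicate 3) to 24. No left-out heart gave a called collagen. With a heart left out, the log2 fold change ranged from -0.16 (without miR-19a/19b mimic replicate 3) to 0.29 for Col1a1, from -0.28 to 0.12 for Col1a2, from -0.26 to 0.014 for Col3a1, from -0.23 to 0.12 for Col5a1 and from -0.027 to 0.25 for Col11a2. The sign turned for Col1a1 without control mimic replicate 2 (-0.00075) or miR-19a/19b mimic replicate 3, for Col1a2 without control mimic replicate 3 (0.02) or miR-19a/19b mimic replicate 2, for Col3a1 without control mimic replicate 2 (0.011) or miR-19a/19b mimic replicate 2, for Col5a1 without miR-19a/19b mimic replicate 2, and for Col11a2 without control mimic replicate 1. Col2a1, Col5a2, Col5a3 and Col11a1 kept their sign in all 14 fits. The difference in the share of reads in fibrillar collagens (mimic minus control) was -0.016 percentage points, -0.0095 with mitochondrial reads left out, and -0.64 to 0.43 when a heart was left out. The value of -0.64 was that without miR-19a/19b mimic replicate 3. Both remaining mimic hearts (2.92% and 2.39%) then lay below every control heart (2.96% to 3.49%). Col1a1, Col1a2 and Col3a1 had 113606 to 476935 reads per heart, and what limits the precision of their fold changes was not tested.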
